A study of Mus musculus with 8 samples.

Results

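Reg3b, Reg3g, Retnlb, Ang4, Itln1 and Lypd8 encode antimicrobial proteins that the intestinal epithelium secretes or displays. These 6 genes, of 14247 in the deposited table, were followed through colonic crypts collected around the day. They were taken by name, and they had been selected on the measured values of the same libraries, namely on how their spread between replicates compared with the change over the day, so their levels and spreads are given as a description with no test. The crypts came from wild-type (WT) mice on the C57BL/6 background kept in a light-dark cycle, with no treatment or transgene named for these libraries, at zeitgeber time (ZT) 0, 6, 12 and 18 h. ZT0 and ZT6 lie in the resting phase and ZT12 and ZT18 in the active phase. Each hour was sampled by 2 libraries, called replicates 1 and 2 here, 8 in all. The caption for the time series counts more mice in a group than there are libraries per hour here, and the methods speak of biological replicates, but the labels tie no library to a mouse, so p-values below measure the spread between these samples. The mice were adults, described as aged a few months, and the crypts were scraped from the large intestine after EDTA treatment, with no stretch of it named.

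Antimicrobial proteins keep bacteria away from the epithelial surface. Reg3b and Reg3g encode C-type lectins that bind bacterial cell walls, and their transcription is known to be driven by microbes through MyD88 and by interleukin-22 through STAT3. Retnlb encodes RELM-beta, a goblet cell protein induced by type 2 cytokines. Ang4 encodes a secreted ribonuclease with bactericidal activity, and Itln1 encodes intelectin-1, a lectin that recognizes microbial sugars. Lypd8 encodes a heavily glycosylated protein of the colonic surface that binds flagella and holds flagellated bacteria off the inner mucus layer.

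The genes lie on 5 chromosomes. In GENCODE M21 (mouse genome GRCm38), Retnlb spans chr16:48816856-48818892 on the + strand, Lypd8 chr11:58379043-58390728 on the + strand, Ang4 chr14:51763878-51773590 on the - strand and Itln1 chr1:171518122-171535294 on the - strand. Reg3b (chr6:78370657-78373466, + strand) and Reg3g (chr6:78466269-78468872, - strand) are 92.8 kb apart in a cluster of related lectin genes, with Reg3d, Reg3a, Reg2 and Reg1 between them. No other annotated gene overlapped any of the 6. The longest coding transcripts of Reg3b and Reg3g were identical at 67.7% of 815 alignment columns. The value was 39.8% of 1157 columns for the unrelated transcripts of Ang4 and Itln1. Of the 50-base words in the protein-coding transcripts of Reg3b, Reg3g, Retnlb and Lypd8, 0 occurred in a transcript of another gene. A read of that length from a coding transcript of one Reg3 gene could thus be told from the other. Exons outside the coding transcripts were not checked. Ang4 shared 31 of 660 words with Ang2 and Ang5, and Itln1 shared 11 of 1132 with Gm9765, so a small share of their reads can be ambiguous.

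The 150 bases before the annotated start are shown for Reg3b (chr6:78370735-78370884), Reg3g (chr6:78468875-78469024), Ang4 (chr14:51773591-51773740) and Itln1 (chr1:171535295-171535444), since the levels of each of these pairs moved together below. They are read 5′ to 3′ on the strand of the gene from RefSeq windows on GRCm38.p6. GENCODE M21 also annotates Reg3b transcripts that start inside or upstream of its window. Capitals mark matches to the letters TATAAA, the TATA box, or TTCNNNGAA, a site for STAT factors.
Reg3b: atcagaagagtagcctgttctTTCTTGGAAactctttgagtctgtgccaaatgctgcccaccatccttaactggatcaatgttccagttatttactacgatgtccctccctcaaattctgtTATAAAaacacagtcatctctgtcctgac
Reg3g: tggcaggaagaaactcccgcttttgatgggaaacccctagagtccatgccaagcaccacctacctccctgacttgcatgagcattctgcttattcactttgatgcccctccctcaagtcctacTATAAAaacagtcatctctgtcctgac
Ang4: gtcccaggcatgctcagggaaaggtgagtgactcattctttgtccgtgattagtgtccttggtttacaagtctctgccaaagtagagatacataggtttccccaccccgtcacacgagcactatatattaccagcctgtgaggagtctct
Itln1: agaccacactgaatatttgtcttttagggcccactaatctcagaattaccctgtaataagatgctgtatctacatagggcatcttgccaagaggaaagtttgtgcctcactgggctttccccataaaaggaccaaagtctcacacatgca
RefSeq windows were found for 5 of the 6 genes, Retnlb being the one without an entry. The Reg3b and Reg3g windows were identical at 68.4% of 152 alignment columns and ended in a shared run of 20 bases, whereas those of Ang4 and Itln1 were identical at 45.0% of 171 columns. TATAAA on either strand occurred 29 to 24 bases before the start of Reg3b and 27 to 22 bases before that of Reg3g, and in 7.57% of all 32851 windows of this length. TTCNNNGAA occurred in the Reg3b window, 129 to 121 bases before the start, and in 4.09% of all windows. The other motifs, searched on both strands, were in none of the windows of the 5 genes: CACGTG, the E-box bound by BMAL1 and CLOCK, which 4.30% of all windows held, TTATGTAA, the D-box, in 0.499%, and AGGTCA, a half-site of nuclear receptors such as the ROR proteins, in 8.58%.

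The libraries held 14722342 to 25159440 reads, and values are normalized counts, the reads of a gene divided by 1 size factor per library. The libraries carried the epithelial markers of their label, since 11 of 11 epithelial markers were in the table, with Epcam between 26494 and 33705 normalized counts. Of 10 clock genes, 8 differed among the 4 time points by limma's F-test with Benjamini-Hochberg adjustment at 0.05, so the time labels carried a daily signal. Other cell types differed between libraries. Summed fibroblast markers (6 of 6 in the table) ranged from 3.2 to 2329 normalized counts and smooth muscle markers (5 of 6) from 6.95 to 3672, both highest in ZT12 replicate 1, while B and plasma cell markers (8 of 9) ranged from 183 to 3311 and myeloid markers (9 of 10) from 637 to 1985, both highest in ZT0 replicate 2. Mitochondrial transcripts took 6.68% to 22.2% of reads.

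Reg3b was high in some libraries and nearly absent in others at the same hour. With replicate 1 given first, the ZT0 libraries held 6.95 and 4319.6 normalized counts, the ZT6 libraries 4478 and 711, the ZT12 libraries 3737 and 605 and the ZT18 libraries 0 and 2319. ZT0 replicate 1 and ZT18 replicate 1 thus stood at the bottom, on 7 and 0 reads, and each had a partner of the same hour that was far higher. The exact Poisson 95% interval of the 7 reads was 2.81 to 14.4 reads, and for the 0 reads the same interval ended at 3.69 reads, so counting error was far smaller than these gaps. Replicates differed 621-fold at ZT0, 6.29-fold at ZT6, 6.17-fold at ZT12 and at least 905-fold at ZT18, where the lower library was set to a floor of 3 reads. The means of the time points, from 1159 at ZT18 to 2595 at ZT6, differed at most 2.24-fold.

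Reg3g was low and high in the same libraries. The ZT0 libraries held 10.9 and 1279.7 normalized counts, the ZT6 libraries 1286 and 260.0, the ZT12 libraries 572 and 259 and the ZT18 libraries 5.13 and 458. The lowest libraries were again ZT0 replicate 1 and ZT18 replicate 1, with 11 and 6 reads. Replicates differed 117-fold at ZT0 and 89.4-fold at ZT18 against 2.21-fold at ZT12, and the means of the time points differed at most 3.34-fold. Per kilobase of exon, Reg3b averaged 1771 normalized counts and Reg3g 244. These lengths joined the exons of all annotated transcripts, 1142 bases for Reg3b and 2114 for Reg3g. Their longest coding transcripts had 783 and 771 bases, so the gap per kilobase depends on the length used. The ratio of Reg3b to Reg3g in normalized counts lay between 2.33 and 6.53 in the 6 libraries that expressed them well, and was 0.636 in ZT0 replicate 1, where both rested on few reads.

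**Figure D1:**
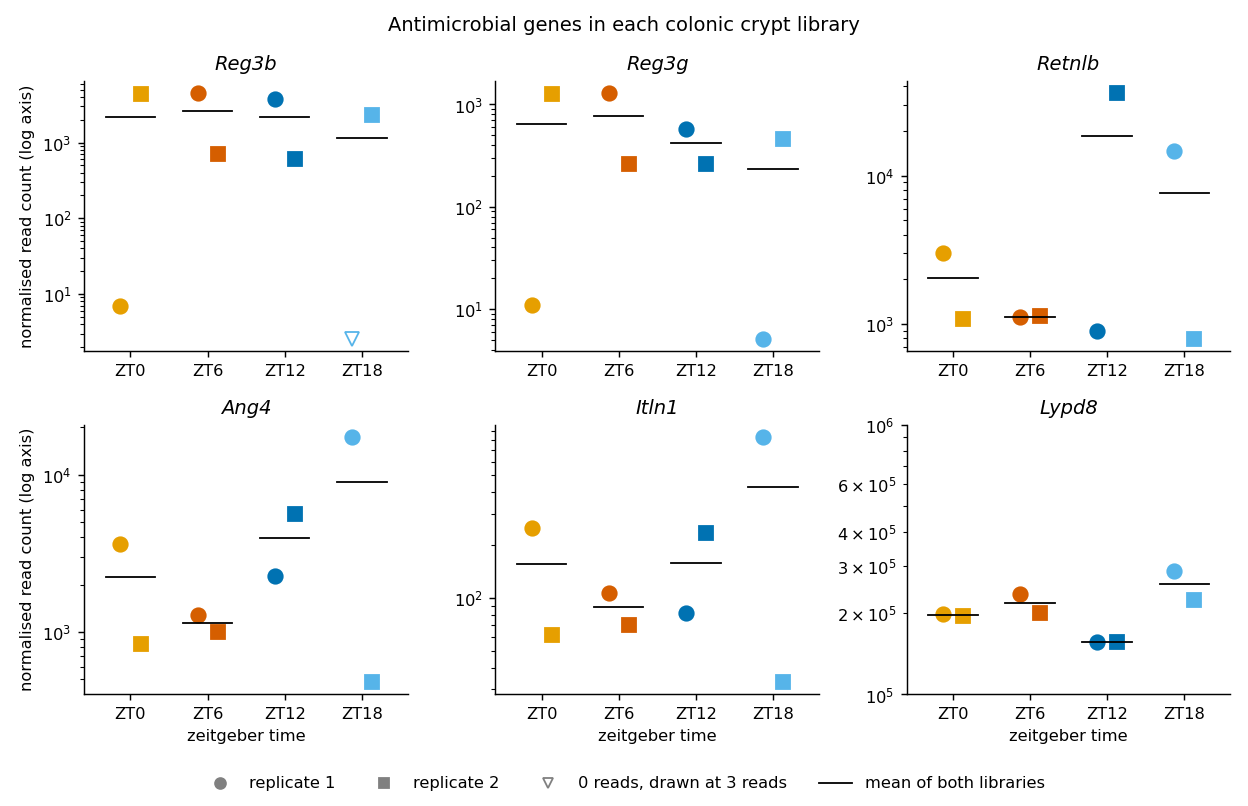
Normalized read count (vertical log axis, different in each panel) of the 6 genes in each library by zeitgeber time, with circles for replicate 1, squares for replicate 2, black lines for the mean of both and an open triangle for 0 reads drawn at 3 reads. Reg3b ran from 0 to 4478 and its replicates lay far apart at ZT0 and ZT18, whereas the Lypd8 replicates differed at most 1.28-fold, at ZT18.

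Retnlb stayed at a like level in most libraries and a much higher one in a pair of active-phase libraries. Its normalized counts were 2991 and 1082 in the ZT0 libraries, 1111 and 1132 in those of ZT6, 897 and 35885 in those of ZT12 and 14558 and 795 in those of ZT18. ZT12 replicate 2 and ZT18 replicate 1 stood above the other 6 libraries, each beside a partner near the bottom. The replicates agreed within 1.02-fold at ZT6 but differed 40.0-fold at ZT12 and 18.3-fold at ZT18, so the 16.4-fold range of the time point means, highest at ZT12, rested on single libraries.

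Ang4 and Itln1 had their highest and their lowest library at the same hour, ZT18. Ang4 measured 3640.3 and 834 normalized counts in the ZT0 libraries, 1275 and 1006 in those of ZT6, 2286 and 5592 in those of ZT12 and 17406 and 479 in those of ZT18. Itln1 measured 250.3 and 61.6 in the ZT0 libraries, 107 and 69.6 in those of ZT6, 81.5 and 235 in those of ZT12 and 831 and 33.0 in those of ZT18. Per kilobase of exon the means were 5733 normalized counts for Ang4 and 183 for Itln1. For both genes ZT18 replicate 1 was the top and ZT18 replicate 2 the bottom of the 8 libraries. The replicates at ZT18 differed 36.3-fold for Ang4 and 25.2-fold for Itln1, more than the 7.84-fold and 4.88-fold ranges of the time point means. The ratio of Ang4 to Itln1 stayed between 11.9 and 28.1 while the level of Ang4 itself varied 36.3-fold.

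Lypd8 was the exception. Its normalized counts were 198466 and 195625 in the ZT0 libraries, 236024 and 200583 in those of ZT6, 155910 and 156411 in those of ZT12 and 287143 and 224679 in those of ZT18. Its mean of 206855 ranked 4 of 14247 in the table, and its 161102 per kilobase of exon ranked 4 as well. The replicates differed 1.01-fold at ZT0, 1.18-fold at ZT6, 1.00-fold at ZT12 and 1.28-fold at ZT18, less than the 1.64-fold range of the time point means (ZT12, 156161 ± 355, and ZT18, 255911 ± 44169, mean ± SD, n = 2 each). Both ZT12 libraries lay below the 6 others. Of all 13503 genes tested, 30.8% had a time point whose libraries both lay above or both below the 6 others, and of the 6 antimicrobial genes this was 1. The fitted difference of Lypd8 between ZT12 and ZT0 was -0.34 on the log2 scale. Its SE by limma was 0.46, a value that also draws on the spread of other genes. The SD of Lypd8 itself between libraries of the same time point was 0.15.

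The size of the spread was put beside all genes on log2(normalized count + 1), for the 13503 genes averaging at least 10. The SD between libraries of the same time point was 5.26 for Reg3b, 3.37 for Reg3g, 2.45 for Retnlb, 2.03 for Ang4, 1.87 for Itln1 and 0.15 for Lypd8, against a median of 0.29 over all genes tested. The Reg3b value exceeded that of 99.99% of genes, and the Itln1 value that of 97.0%, whereas the Lypd8 value exceeded 15.5%. The share of the variation that lay within time points was 74.6% for Reg3b, 75.4% for Reg3g, 79.2% for Retnlb, 83.3% for Ang4, 93.7% for Itln1 and 14.8% for Lypd8. Its median was 77.3% over the 6 genes and 53.5% over all genes tested. With no change over the day, 57.1% would be expected from the degrees of freedom alone. The Reg3b share exceeded that of 78.3% of genes, the Itln1 share that of 97.3% and the Lypd8 share that of 5.46%. By limma, 0 of the 6 genes passed an adjusted p of 0.05 for the 4 time points (0.0889% of all genes passed), for a 24 h cosine (0.118%) or for ZT12 against ZT0 (0.0667%), and 0 had an unadjusted p under 0.05 in any of these. The count was also 0 by edgeR and DESeq2 on the recovered reads. These contrasts are the ones the choice of the genes had used, so nothing is read from the counts.

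**Figure D2:**
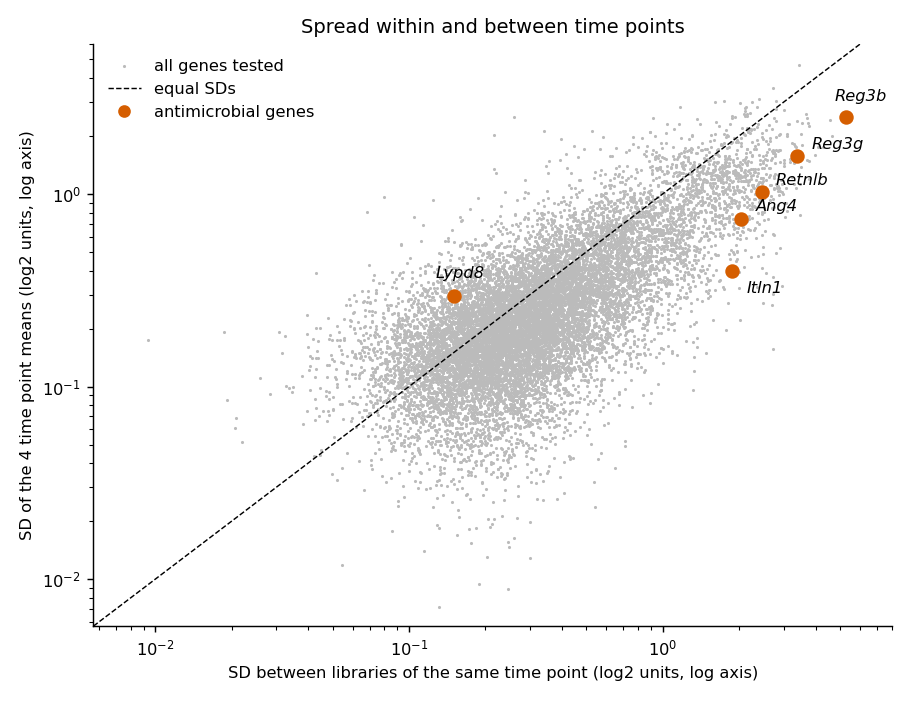
Each grey point is 1 of 13503 genes, by its SD between libraries of the same time point (horizontal, log2 units, log axis) and the SD of its 4 time point means (vertical, log2 units, log axis), with the 6 antimicrobial genes in orange and a dashed line where both are equal. Lypd8 lay above the line at an SD of 0.15 within time points, and the other 5 genes lay below it, from 1.87 for Itln1 to 5.26 for Reg3b.

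The spread was also computed with libraries left out. With 2 libraries per hour, leaving out either one removes the whole replicate gap of that hour. The SD of Reg3b was 4.81 without ZT0 replicate 1 and 4.81 without ZT0 replicate 2, so these SDs cannot tell which library stood apart. Without ZT0 replicate 1 and ZT18 replicate 1, only the ZT6 and ZT12 pairs enter the SD. Without ZT0 replicate 1 and ZT18 replicate 1, the SD between libraries of the same time point was 1.87 for Reg3b, 1.28 for Reg3g, 0.67 for Ang4 and 0.82 for Itln1, each above that of 89.5% to 98.8% of the genes, and for Retnlb it was 2.66. In those 6 libraries the share of variation within time points was 11.6% for Ang4 and 31.2% for Itln1 and was 80.7% for Reg3b. The median share over all genes was 26.5% there. Without ZT18 replicate 2 alone, the shares were 34.2% for Reg3b, 44.5% for Reg3g, 21.5% for Ang4 and 31.0% for Itln1, beside a median of 37.8% over all genes. Without ZT12 replicate 1, the share of Retnlb was 35.4%, beside a median of 51.8%. Lypd8 depended on the scaling: after quantile normalization its SD was 0.45 and its share within time points 53.4%.

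The 6 genes fell into patterns across libraries, given here as Pearson's r on the log2 scale over the 8 libraries, which share the same size factors, with Spearman's rho and with r without the libraries farthest from the median of the first gene. Reg3b and Reg3g gave r = 0.99 (rho = 1.00, and 0.92 without ZT0 replicate 1 and ZT18 replicate 1), and the same replicate was the higher one for both genes at 4 of 4 time points. Ang4 and Itln1 gave r = 0.97 (rho = 0.95, and 0.89 without both ZT18 libraries). Retnlb gave r = 0.83 with Ang4 (rho = 0.81, and 0.73 without ZT12 replicate 2 and ZT18 replicate 1) and 0.80 with Itln1. The Reg3 pair ran against the others: r was -0.86 between Reg3b and Itln1 (rho = -0.64) and -0.58 between Reg3b and Retnlb (rho = -0.69), and the replicate with more Reg3b had less Retnlb at every time point. The value for Reg3b and Itln1 was -0.42 without ZT0 replicate 1 and ZT18 replicate 1. Lypd8 gave -0.49 with Reg3b and 0.16 with Ang4, and both changed sign without the farthest libraries, to 0.34 and -0.72.

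**Figure D3:**
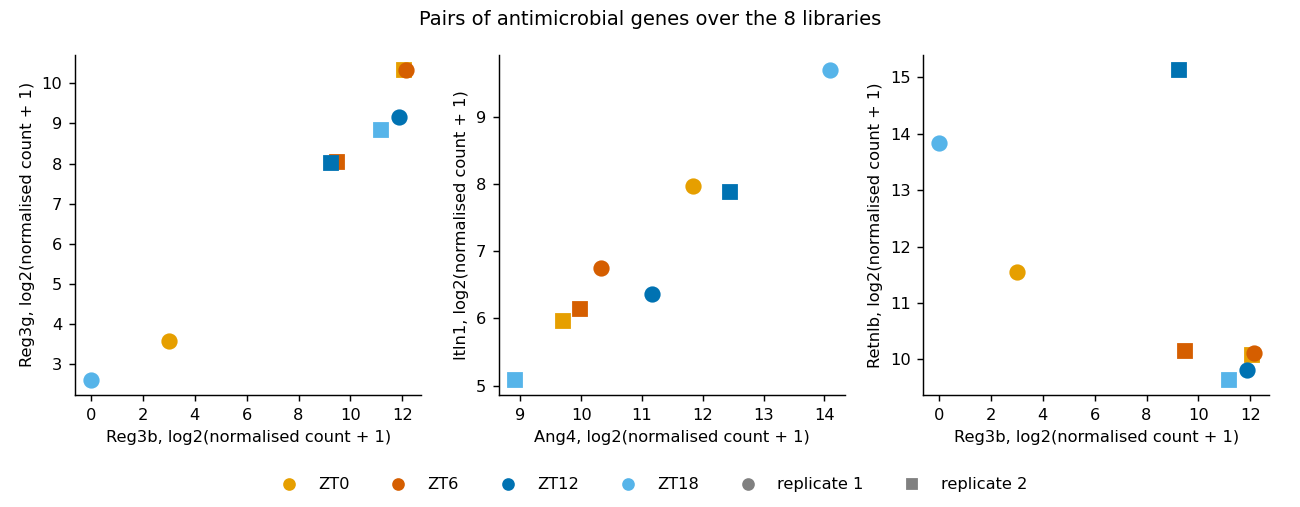
Log2(normalized count + 1) of Reg3g against Reg3b, Itln1 against Ang4 and Retnlb against Reg3b, with 1 point per library, colored by time point, circles for replicate 1 and squares for replicate 2. The first 2 panels rise (r = 0.99 and 0.97), and in the third the libraries with the least Reg3b and ZT12 replicate 2 hold the most Retnlb.

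Among genes outside the 6, the closest in pattern to Reg3b by r over the 8 libraries were Tnfrsf23 (0.99), a decoy TRAIL receptor, Hoxb7 (0.98), a homeobox gene of anterior-posterior position, and Hsd17b14 (0.98). Tnfrsf23 ran from 7.69 normalized counts in ZT18 replicate 1 and 14.9 in ZT0 replicate 1 to 69.02 in ZT0 replicate 2, so it was low in the same libraries over a much narrower range. Tnfrsf23 and Hsd17b14 were also the closest to Reg3g, each at 0.98, followed by Zswim3 (0.97). For Retnlb the closest were Cd14 (0.97), the co-receptor for lipopolysaccharide, Igsf23 (0.96) and Spcs3 (0.95), a signal peptidase subunit. Cd14 reached 1018 normalized counts in replicate 2 of ZT12 and 942 in replicate 1 of ZT18, and stood between 561 and 795 elsewhere, so both libraries rich in Retnlb were its highest. For Ang4 they were Slc6a8 (0.98), the creatine transporter, Pip4k2c (0.98) and Ngef (0.96), and for Itln1 Mapkap1 (0.98), a subunit of mTORC2, Tmem80 (0.98) and Endod1 (0.97). These ran in a narrow range, Mapkap1 from 1152 to 1575. Lypd8 was closest to Ints1 (0.94), Rexo5 (0.93) and Zfp524 (0.93). With 8 points and 13503 genes such values describe these libraries. Some were lower by other measures. Without ZT0 replicate 1 and ZT18 replicate 1, r with Reg3b was 0.66 for Hoxb7 and 0.91 for Tnfrsf23. Cd14 gave rho = 0.57 with Retnlb, and r = 0.92 without ZT12 replicate 2 and ZT18 replicate 1.

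Hox genes of paralogue groups 3 to 8 in clusters B and D, which mark position along the body axis, were low in the same libraries as the Reg3 pair. Of 15 Hox genes of paralogue groups 2 to 8 tested, the more anterior ones, 10 had their lowest levels in ZT0 replicate 1 and ZT18 replicate 1, the libraries nearly without Reg3b, as did 7.78% of all genes tested, and 12 had a positive r with Reg3b. Those lowest in both libraries were 6 of 6 genes in cluster B, 3 of 3 in cluster D and 1 of 6 in cluster A, where r with Reg3b was positive for 3 genes and as low as -0.59, for Hoxa4. Of 11 genes of groups 9 to 13, the more posterior ones, 0 were lowest in both libraries and 4 had a positive r. Hoxb7 had 1.99 and 0 normalized counts in ZT0 replicate 1 and ZT18 replicate 1 and between 58.8 and 223 in the others. Hoxb13 was highest in those libraries, with 6405 and 6927, and ranged from 2508 to 5682 elsewhere, with r = -0.84 to Reg3b. Over the 11 genes, r ran from this value up to 0.35, for Hoxb9. Summed posterior Hox markers (6 of 7 in the table) were highest in ZT12 replicate 2, at 9795 normalized counts. Their sum was 8761 in ZT0 replicate 1 and 9421 in ZT18 replicate 1. Of 10 colonocyte markers, 4 had a positive and 6 a negative r with Reg3b, and 3, Car1, Guca2b and Cyp2c55, were lowest in both libraries. Car1, a carbonic anhydrase of colonocytes, had 25770.4 and 29319.7 normalized counts there and between 101729 and 156024 elsewhere. Osr2, a transcription factor named here after its values were seen, had 5.96 and 0 there and from 266 to 2009 elsewhere. The colonocyte markers named and the Hox genes other than Hoxb7 were also picked after their values were seen. In a bulk library fewer cells of a type and less RNA per cell cannot be told apart, and the part that the stretch of colon sampled had in the levels of the 6 genes was not tested.

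**Figure D4:**
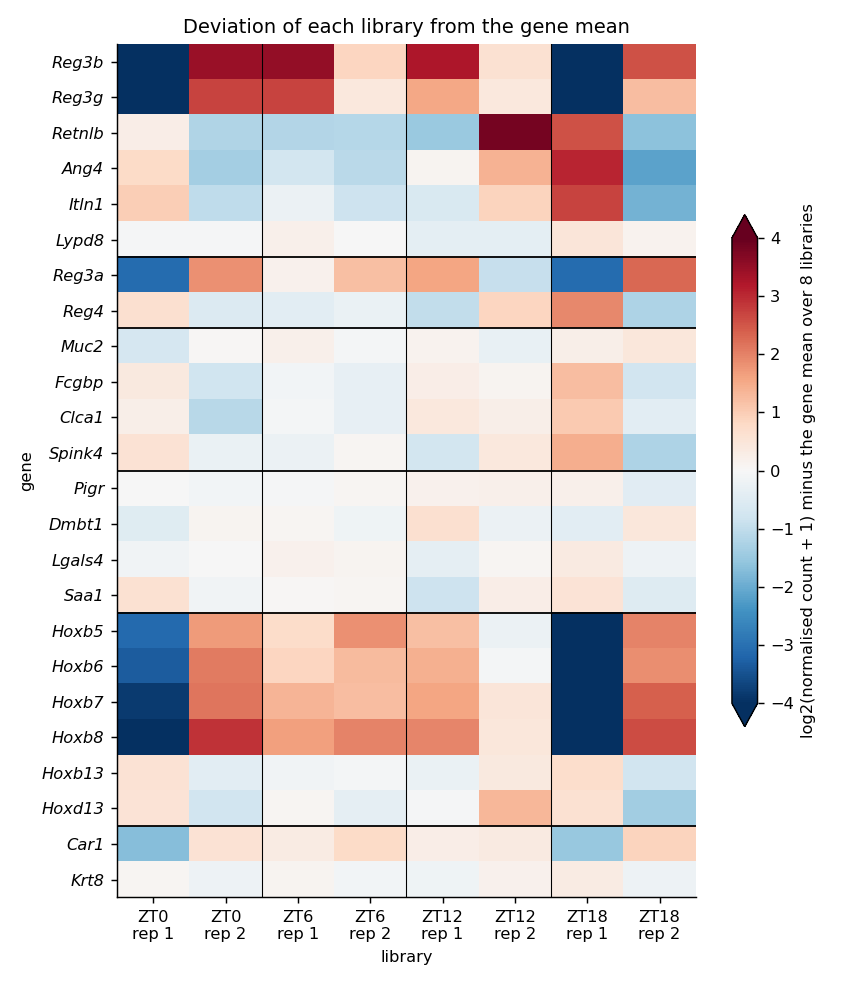
Log2(normalized count + 1) of each library (columns) minus the mean of the gene over the 8 libraries (color), for the 6 antimicrobial genes, related family genes, goblet cell genes, other antimicrobial genes, Hox genes, a colonocyte marker and an epithelial keratin (rows). Reg3b, Reg3g, Reg3a and Hoxb5 to Hoxb8 were low in ZT0 replicate 1 and ZT18 replicate 1, where Ang4, Itln1, Reg4 and Hoxb13 were high, while Krt8 ran from 80799 to 115823 normalized counts.

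Of 20 further genes in the families of the 6, the table held 6. Reg3a, the next lectin of the cluster, had 0 reads in ZT0 replicate 1 and ZT18 replicate 1 and between 3.46 and 41.0 normalized counts in the other 6 libraries, the pattern of its neighbors. Reg4, a lectin of secretory cells encoded elsewhere, went the other way: it ranged from 2402 in ZT18 replicate 2 to 21655 in ZT18 replicate 1, with r = 0.91 to Ang4 and -0.87 to Reg3b. Among ribonucleases, Rnase4 ranged from 1342 to 2258 with r = -0.91 to Ang4, Ang from 213 to 383, and Rnase1 from 0 to 79.6, highest in ZT12 replicate 2. Lypd6b ranged from 63.5 to 159. By limma 0 of the 6 had an adjusted p under 0.05 or an unadjusted p under 0.05 in the 4 time points, the cosine or ZT12 against ZT0. The median share of variation within time points over these genes was 73.0%.

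Other antimicrobial and mucosal defense genes of the epithelium had a lower median spread. Of 44 listed, 32 were in the table and 30 were tested, with a median SD between libraries of the same time point of 0.45 and a median share within time points of 63.7%. The most abundant were Pigr, the transporter of secretory IgA, from 58350 to 92603 normalized counts, Dmbt1, a scavenger receptor that agglutinates bacteria, from 51975 to 111698, and Lgals4, a galectin, from 52259.8 to 85289. The widest were Lyz1, a Paneth cell lysozyme, from 0 to 169.8 with its peak in ZT0 replicate 2, and Ccl20, a chemokine that attracts CCR6 cells, from 10.5 in ZT18 replicate 2 to 275 in ZT6 replicate 2. Of the 30 genes, 12 had a range over 2 on the log2 scale, against 18.2% of all genes tested.

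Sprr2a1 was the gene of this list that passed for a daily rhythm. It encodes a small proline-rich protein with antibacterial activity. Its normalized counts were 2036 and 1533 in the ZT0 libraries, 2740.0 and 2385 in those of ZT6, 1065 and 782 in those of ZT12 and 875 and 812 in those of ZT18, so that every resting-phase library lay above every active-phase library. The 24 h cosine had an amplitude, mean to peak, of 0.93 on the log2 scale with its peak at 3.95 h (limma, adjusted p = 0.0316). The adjusted p of the F-test over the 4 time points was 0.0786. By that F-test 0 of 30 genes passed and 7 had an unadjusted p under 0.05, a count given without the share over all genes. Over the 4 time points edgeR called 0 of the 30, beside 10 of all 13503 genes tested. DESeq2 called 6, namely Alpi, Ccl20, Irgm1, Nos2, Sprr2a1 and Sprr2a2, beside 217 of all 13503. ZT12 against ZT0 gave 0 calls by limma with 5 unadjusted p under 0.05. The call of Sprr2a1 was lost when any of 7 single libraries was left out, ZT0 replicate 2 being the exception, with an adjusted p of 0.0169 to 0.224. Sprr2a1 has near-identical copies, Sprr2a2 and Sprr2a3, whose reads may be divided between them, and its level is uncertain for that reason. Sprr2a2 followed it, from 1356 to 4901, at an adjusted p of 0.189 for limma's cosine. Sprr2a3, the most abundant copy, averaged 14765.5 normalized counts against 1528 for Sprr2a1. Its adjusted p for limma's cosine was 0.696, so the copy with the most reads was not called.

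Receptors and sensors known to act upstream of these genes had spreads near the median of all genes. Of 40 listed, 40 were in the table and 39 tested, with a median SD between libraries of the same time point of 0.28, and 0 passed any of the 3 tests by limma, with unadjusted p under 0.05 for 2, 4 and 2 genes in the F-test, the cosine and the contrast. Naip1, Nlrp6 and Il17rc, a member of the NAIP sensor family, an inflammasome receptor and a receptor chain for interleukin-17, were the most abundant, and Nlrp6 ran from 4318 to 5229 normalized counts. The widest were Tlr5 and Il18r1. Tlr5, the receptor for flagellin, had 0 and 14.9 normalized counts in ZT18 replicate 1 and ZT0 replicate 1 and between 54.2 and 229 elsewhere, with r = 0.91 to Reg3b (rho = 0.62, and 0.31 without those libraries). Il18r1 ran from 0 to 23.4. Of the 39 genes, 23 had a positive and 16 a negative r with Reg3b. Lowest in ZT0 replicate 1 and ZT18 replicate 1 were 7 of the 39, as were 7.78% of all genes tested. Of 16 cytokine genes of lymphoid and related sources, 5 were in the table, and Il22, Il17a and Il13 were not among the genes held.

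Genes known to be induced by interleukin-22 or STAT3 went both ways with Reg3b. Of 16 listed, 13 were in the table and 12 tested, with 0 calls by limma in each of the 3 tests and 2, 3 and 1 unadjusted p under 0.05. Of the 12, 6 had a positive and 6 a negative r with Reg3b. Lowest in ZT0 replicate 1 and ZT18 replicate 1 were 3, Socs3, Pim1 and Tifa, as were 7.78% of all genes tested. They gave r = 0.66, 0.63 and 0.59 to Reg3b, and 0.06, -0.28 and -0.33 without those libraries. These 3 were named after their values were seen. The part of interleukin-22 in the levels of Reg3b was not tested. Saa1, an acute-phase protein, ranged from 12776 to 34892 normalized counts and was highest in ZT0 replicate 1 and ZT18 replicate 1, with r = -0.77 to Reg3b (rho = -0.76, and -0.56 without those libraries). Its relative Saa3 ranged from 8.54 to 84.9, lowest in those libraries, with r = 0.93 to Reg3b (rho = 0.57, and 0.41 without them). Duox2, which makes hydrogen peroxide at the surface, ranged from 3359 to 7622, Fut2, a fucosyltransferase, from 3169 to 4735, and Cxcl5 from 0 to 23.4. Nos2 had 14.9 and 11.2 at ZT0 and 175 and 248 at ZT6, between 29.0 and 64.6 in the active phase, and 4.26% of its variation within time points, with an adjusted p of 0.137 in limma's F-test.

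Goblet cells, a known source of Retnlb, Ang4 and Itln1, were represented by 16 of 16 listed genes, of which 0 passed any of the 3 tests by limma and 0, 1 and 1 had an unadjusted p under 0.05. Their summed level was between 285415 and 536198 normalized counts, lowest in ZT0 replicate 2 and highest in ZT18 replicate 1, the library with the most Ang4 and Itln1. Muc2, the main gel-forming mucin, ranged from 85161 to 186592 and gave r = -0.33 with Ang4. Fcgbp and Clca1, further mucus proteins, ranged from 35003 to 142544 and from 27206 to 121615, with r = 0.94 and 0.86 to Ang4, and Spink4, a secreted goblet cell peptide, from 2534 to 16419.5 with r = 0.86. Over the 16 genes, r with Ang4 was positive for 8 and negative for 8, among them Agr2 at -0.75, a gene named after its values were seen. Fcgbp, Clca1 and Spink4 were highest in ZT18 replicate 1, but their ranges of 4.07-fold, 4.47-fold and 6.48-fold were narrower than the 36.3-fold range of Ang4. The part of goblet cell number in this was not tested.

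**Figure D5:**
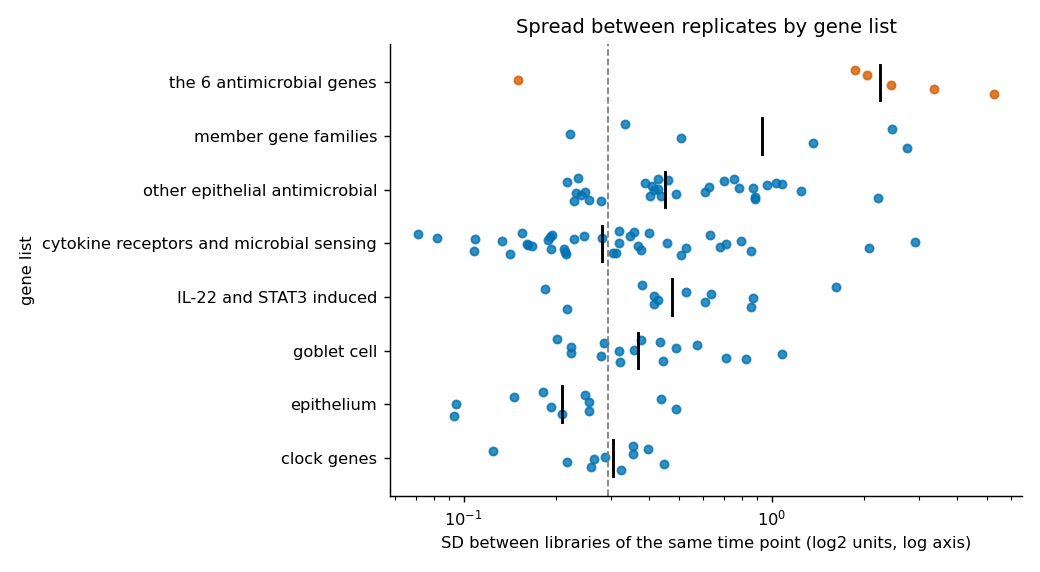
SD between libraries of the same time point (horizontal, log2 units, log axis) of each tested gene in 8 lists (rows), with black bars for the median of the list and a dashed line for the median of 0.29 over all genes tested. The 6 antimicrobial genes, in orange, had a median of 2.24 with Lypd8 apart at 0.15, against 0.45 for other antimicrobial genes, 0.28 for receptors and sensors and 0.31 for clock genes.

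Markers of other cell types were present at differing levels. Small intestinal enterocyte markers (6 of 10 in the table) summed to between 4822 normalized counts, in ZT0 replicate 1, and 12010.3, in ZT18 replicate 2. Of these 6 genes, 5 had a positive r with Reg3b, and 3, Sis, Slc10a2 and Fabp6, were lowest in ZT0 replicate 1 and ZT18 replicate 1, as were 7.78% of all genes tested. Slc10a2, the ileal bile acid transporter, gave r = 0.92, Sis, sucrase-isomaltase, 0.89 and Fabp6 0.51. Without those libraries these were 0.50, 0.32 and -0.51. The gene with a negative r was Rbp2, at -0.80. These genes were named after their values were seen. Of 10 Paneth cell markers 3 were in the table, the listed defensins not among them, and their sum ran from 18.5 to 234 normalized counts, highest in ZT12 replicate 2, where Retnlb peaked. Pancreatic acinar markers (3 of 14 in the table) summed to between 2542 and 6588, lowest in ZT18 replicate 2 and highest in ZT12 replicate 2. That sum was mostly Cela1, which averaged 4493 normalized counts, against 227 for Clps and 13.6 for Rnase1. Prss2, Cpa1, Pnlip and Amy2a5 were not among the genes held, so the sum does not establish acinar cells. Among immune cells, T cell markers (9 of 9) summed to between 48.7 and 336, and the B and plasma cell and myeloid sums peaked in ZT0 replicate 2, where Reg3b had 4319.6 normalized counts, though Reg3b was as high in ZT6 replicate 1, at 4478, with sums of 317 and 694. Their part in the levels of the 6 genes was not tested.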

How the data were processed

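RNA-seq libraries of colonic crypts of WT mice were analysed at ZT0, ZT6, ZT12 and ZT18, with 2 libraries per time point. According to the methods and the labels, the authors aligned reads with STAR to GRCm38 (mm10) and used DESeq2. Annotation, counting tool and strand setting are not given in the sources used here. The labels and the methods name different library kits. The deposited table of 14247 genes holds, per library, a signal, the read count that the authors divided by 1 size factor, so that 1 read was worth between 0.804 and 1.23 normalized counts. Whole reads were recovered from these steps (100% of values within 0.05 reads). Its further columns, a mean, fold change, error, statistic and p-values of a comparison by the authors, were not used.

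The 6 genes and the gene lists were chosen with earlier results of these data known. The test was limma 3.58.1 (R 4.3.3), with a mean-variance trend, on log2(normalized count + 1), for the 13503 genes averaging 10 or more, with 1 mean per time point, an F-test, a 24 h cosine and the contrast of ZT12 with ZT0, each with Benjamini-Hochberg adjustment at 0.05. Changes of low genes are understated on this scale. edgeR 4.0.16 and DESeq2 1.42.0 on recovered reads, other scalings, pseudocounts and filters, a rank test, and leaving out libraries were alternatives. The steps were tested on simulated data. Gene positions came from GENCODE M21, and 14239 identifiers matched. Alignments used Biopython 1.88. Named were the 6 genes, the 3 genes closest to each, list genes with an adjusted p under 0.05, and the 3 highest and 2 widest genes of 5 lists. Other genes were named after their values were seen. Total reads ranged from 14722342 to 25159440. Intervals and floors of 3 reads cover counting error only, because PCR copies of a molecule were not told apart.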

Additional observations from a re-analysis of the deposited data

How the results depend on the processing

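With the main settings 12 genes differed among the 4 time points, 16 followed a 24 h cosine and 9 differed between ZT12 and ZT0. Without the mean-variance trend these counts were 2, 1 and 1, by DESeq2 217, 184 and 135, and by edgeR 10, 12 and 5. The rank test called 0 genes for the rhythm. Leaving out single libraries gave 1 to 16, 6 to 18 and 5 to 13. Leaving out ZT0 replicate 1 and ZT18 replicate 1 together gave 31, 42 and 18, and leaving out ZT0 replicate 2 and ZT12 replicate 1 gave 1, 10 and 2, both chosen after seeing the data. None of the 6 antimicrobial genes was called under any setting run.

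Of the other antimicrobial genes, the F-test called 0, by DESeq2 6, and without ZT0 replicate 1 and ZT18 replicate 1 it called 1, Pla2g5. The cosine called 1, and 0 without the trend, 2 by DESeq2, 0 by the rank test, 3 without ZT0 replicate 1 and ZT18 replicate 1, and 0 to 1 with single libraries left out. The median share of variation within time points over the 6 genes, 77.3%, was 46.2% without ZT0 replicate 1 and ZT18 replicate 1 and 32.6% to 83.0% with single libraries left out, lowest without ZT18 replicate 2. The median over all genes was 53.5%, 26.5% without both libraries and 37.8% without ZT18 replicate 2. The cause was not tested.

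Replicate numbers did not pair the libraries, with correlations of deviations from -0.29 to 0.22 between time points. A fit that blocked on replicate number (paired) gave counts of 8, 12 and 8, and it changed no call of the 6 genes or of the other antimicrobial genes. Precision is limited by the spread of the 2 libraries of each hour more than by depth, except for Reg3b and Reg3g in ZT0 replicate 1 and ZT18 replicate 1, which rest on 0 to 11 reads.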
